A study of Mus musculus with 9 samples.

Results

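Heat shock proteins and the chaperones of the cytosol were followed as a group of 37 mouse genes chosen by name: HSP70 and HSP110 proteins, J domain proteins, BAG proteins, HSP90 with its partners, the subunits of the chaperonin, the chaperones of mitochondria, the small heat shock protein Hspb1 and the transcription factor Hsf1. Of these genes, 35 had at least 1 probe under their symbol on the Illumina bead array, 63 probes of the 45281 in all. Hsp90ab1 and Hsf1 had none under their symbol and were not analysed here. A probe was tested if its detection p, the chance of so high a signal from negative control beads, was below 0.05 on 3 or more of the 9 arrays. That left 37 probes of 28 member genes among 13641 tested probes.

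The arrays measured total RNA of leukemia stem cells driven by the oncogene MLL-AF9, a fusion found in acute leukemia. The cells came from the bone marrow of mice after quaternary transplantation. They were C57BL/6 cells with the Actin-dsRed transgene, sorted as dsRed positive, low for Hoechst dye, high for c-kit and FcyRII, and positive for CD34. A short hairpin RNA against Csnk1a1, the gene of casein kinase 1 alpha, was carried by 6 samples: hairpin 94 in 3 (replicates 1 to 3) and hairpin 97 in 3 (replicates 4 to 6). A hairpin against luciferase, called Luc, served as the control in 3 samples (replicates 1 to 3). No label says that replicates are separate mice or separate cultures. The p-values therefore measure the spread between these samples alone, which may be technical. The series title names p53-dependent killing of these cells as the subject. The question followed here is whether chaperone genes were expressed at other levels with either hairpin than with Luc.

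HSP70 proteins bind unfolded stretches of other proteins in a cycle of ATP binding and hydrolysis. J domain proteins deliver the client and stimulate hydrolysis, and HSP110 and BAG proteins then release the nucleotide so that the client can leave. HSP90 takes over partly folded kinases and receptors with a set of partner proteins, and the chaperonin encloses its clients, actin and tubulin among them, in a ring. Under heat or other protein damage, the factor HSF1 binds heat shock elements in promoters and raises genes such as Hspa1a, Hspa1b, Dnajb1, Hsph1, Bag3 and Hspb1. Many tumour cells depend on these proteins.

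The probe for the target, Csnk1a1, was detected on 0 of the 9 arrays (detection p between 0.2927 and 0.8622), so it could not check the labels. The arrays differed in brightness with the groups. Between 13053 and 14280 probes were detected with hairpin 94, between 12969 and 14168 with hairpin 97 and between 9262 and 10347 with Luc. The mean deposited signal was 167.6 to 195.8 with hairpin 94, 174.6 to 201.1 with hairpin 97 and 129.3 to 131.7 with Luc. Both measures were higher on every knockdown array than on every Luc array, by 3570 probes and 54.47 signal units on average (exact two-sided permutation p = 0.0119 each, the smallest that 84 splits allow). The levels given here are log2 signals after background correction and quantile normalization, which gives every array the same distribution, so a change is relative to the other probes of the array. Whether a sample held fewer cells of a kind or less RNA per cell cannot be told apart. With other scalings the median change of all tested probes was 0.00 (cyclic loess), -0.55 (scaling to the median of probes that every array detected) and 0.88 (scaling to the median of all probes), against 0.11 with quantile normalization. The share of higher probes among those past the threshold was 47.8%, 15.6% and 99.9% under these scalings in the same order, against 62.2% with quantile normalization. Brightness and knockdown cannot be told apart, since the groups do not overlap in it. A limma fit that carries each array's count of detected probes as a covariate passed 0 of the 13641 probes against Luc (1390 at an unadjusted p under 0.05), but that fit leaves little to estimate: the median standard error was 0.525, against 0.153 without the covariate.

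Chaperone genes moved in both directions with Csnk1a1 knockdown. The constitutive HSP70 gene Hspa8 was 2.37-fold higher on 1 of its 3 probes. Of the 8 tested chaperonin probes, 5, of Tcp1, Cct3, Cct4 and Cct8, were 1.28- to 1.73-fold higher. Of all tested probes 25% were higher. With each of the 9 arrays left out in turn, the 1.28-fold call, of a Cct3 probe, held for 2. Bag3, a heat-inducible partner of HSP70, was 2.16-fold lower, and Bag4, Fkbp4, the mitochondrial gene Hspe1 and 1 probe of Cct6a were lower too, although all 5 had changes above 0 with scaling over all probes. The heat-inducible genes did not share a direction: Hsph1 was higher, Bag3 lower except with scaling over all probes, and Dnajb1 did not pass the test. Hspa1a and Hspa1b, the most strongly heat-inducible HSP70 genes, were detected on no array.

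In numbers, 18 of the 37 tested member probes, 48.6%, passed an adjusted p of 0.05 in the comparison of both hairpins with Luc (limma with Benjamini-Hochberg adjustment over all tested probes). Among all tested probes 40.2% did. Of the 18, 12 were higher and 6 lower with quantile normalization, where 25.0% of all tested probes were higher and 15.2% lower. Hspa4, 1 of the 12, was detected on no Luc array and entered the test through the knockdown arrays alone. Among probes detected on all arrays, 15 of 27 member probes passed, 55.6%, against 47.9% of all such probes. With scaling over all probes none of the 6 lower probes kept a value below 0, and with scaling over probes that every array detected 11 of the 12 higher probes had a value above 0, Hspa4 being the exception. Member changes ranged from -1.11 to 1.46 on the log2 scale, with a median of 0.12 (median standard error 0.151) against 0.11 over all tested probes. The values of the 6 knockdown arrays and the 3 Luc arrays did not overlap for 9 of the higher and 5 of the lower probes, while 21.5% and 12.6% of all tested probes were apart in these directions. By gene, 10 of the 28 tested members had a probe that was higher and none lower, 5 had a probe lower and none higher under quantile normalization, Dnajb6 had both, and 12 had none past the threshold. Genes with several tested probes have more chances to pass, and the share of all genes was not counted in this way. With 1 probe per gene, 3465 of all 8027 tested genes passed in either direction. The other 7 members with probes, Hspa1a, Hspa1b, Dnaja1, Dnajb4, Cct2, Cct7 and Hspb1, had none that could be tested. The plot of changes by role shows every tested probe.

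**Figure D1:**
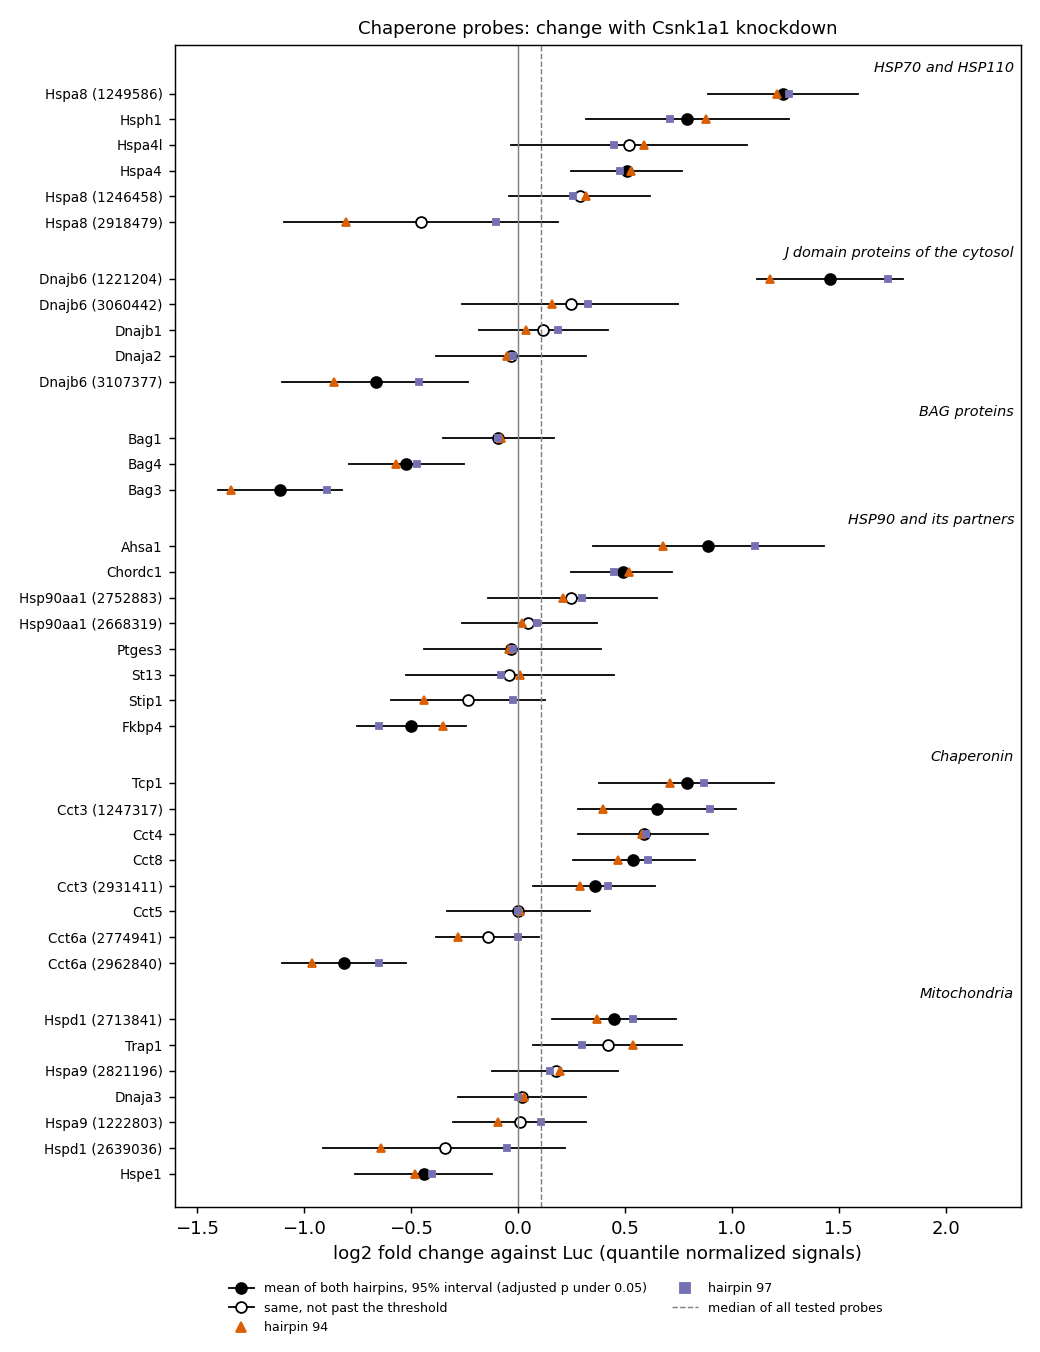
Log2 fold change against Luc (x axis, quantile normalized signals) for the 37 tested chaperone probes, by role; numbers in brackets are probe numbers of genes with several tested probes. Circles with bars are the mean of both hairpins with its 95% interval, filled where the adjusted p is under 0.05, triangles are hairpin 94 and squares hairpin 97. Values lie on both sides of the dashed line, the median of all tested probes at 0.11, from Bag3 at -1.11 to a Dnajb6 probe at 1.46. With scaling over all probes the values left of 0 that passed the threshold turn positive, and Hspa4 and Cct5 were detected on no Luc array.

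The HSP70 and HSP110 genes had 6 tested probes of 4 genes, with a median change of 0.51. Of the probes, 3 were higher and none was lower. Hspa4, 1 of the 3, was detected on no Luc array and entered the test through the knockdown arrays alone. It was not higher with scaling over probes that every array detected. Of the 6, 50% passed, against 40.2% of all tested probes (25% higher and 15.2% lower). Hspa8 (chr9:40801276-40805202 in GRCm38.p6) encodes HSC70, the HSP70 that cells make without stress. Its 3 probes, all annotated to the same transcript, did not move alike. Probe ILMN_1249586 measured 8.37, 8.52 and 8.54 with hairpin 94, 8.52, 8.37 and 8.71 with hairpin 97, and 7.35, 6.87 and 7.57 with Luc. All 6 knockdown arrays lay above all 3 Luc arrays, with a log2 fold change of 1.24 (SE 0.159, adjusted p = 0.0003416). The brightest probe, ILMN_1246458, measured 11.51, 11.37 and 11.81 with hairpin 94, 11.53, 11.44 and 11.57 with hairpin 97, and 10.94, 11.30 and 11.51 with Luc. These overlapped, and the change of 0.29 did not pass the test (SE 0.151, adjusted p = 0.1484, interval -0.04 to 0.62). Probe ILMN_2918479 measured 10.46, 10.34 and 9.26 with hairpin 94, 10.99, 10.42 and 10.76 with hairpin 97, and 11.44, 10.50 and 10.53 with Luc. Its groups overlapped as well, with a change of -0.45 that did not pass (SE 0.291, adjusted p = 0.24) and that was 0.90 with scaling over all probes. The distance between the highest and the lowest Hspa8 change was 1.69 on the log2 scale, so the probes do not give 1 size of change. Only the higher probe passed, so opposite directions are not shown. With scaling over all probes ILMN_1249586 was at 2.67 and ILMN_1246458 at 1.69, so all 3 were above 0.

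Among the HSP110 proteins, which release the nucleotide from HSP70, Hsph1 (chr5:149616843-149636498) is also raised by heat. It measured 6.39, 6.81 and 6.73 with hairpin 94, 6.29, 6.40 and 6.74 with hairpin 97, and 5.70, 5.28 and 6.32 with Luc. The third Luc array lay just above the lowest knockdown array, and the change was 0.79 (SE 0.214, adjusted p = 0.01346). Without Luc replicate 2 it was 0.55 and no longer passed (adjusted p = 0.05209). Hspa4 was detected on all 6 knockdown arrays and on no Luc array. Its values were 5.15, 5.06 and 5.11 with hairpin 94, 5.17, 5.12 and 4.89 with hairpin 97, and 4.45, 4.58 and 4.70 with Luc. A probe not above background with Luc has only a bound there, and by it the knockdown level was at least 1.1-fold higher. That bound was not tested. The limma change, which uses the Luc values below detection, was 0.51 (SE 0.117, adjusted p = 0.006425). It turned to -0.72 with scaling over probes that every array detected. Hspa4l, a relative of Hspa4, measured between 5.63 and 6.22 on the knockdown arrays and between 4.75 and 6.06 with Luc, where 2 of 3 arrays detected it. Its change of 0.52 did not pass (SE 0.249, adjusted p = 0.1195).

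Hspa1a and Hspa1b, near-identical neighbours at chr17:34969359-34972156 and chr17:34956429-34959238, are the HSP70 genes that heat raises most. All 3 Hspa1a probes (detection p 0.08547 to 0.984) and both Hspa1b probes (0.1335 to 0.8066) were below the detection threshold on all 9 arrays. Of the 2 probes for Hspb1, a small heat shock protein that holds unfolded clients, 1 was detected on 1 array with hairpin 94 and the other on none. A level not above background has no order between the groups, so nothing is said of a change in these 3 genes.

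The plot of single arrays of the HSP70 system puts these probes beside those of its J domain and BAG partners.

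**Figure D2:**
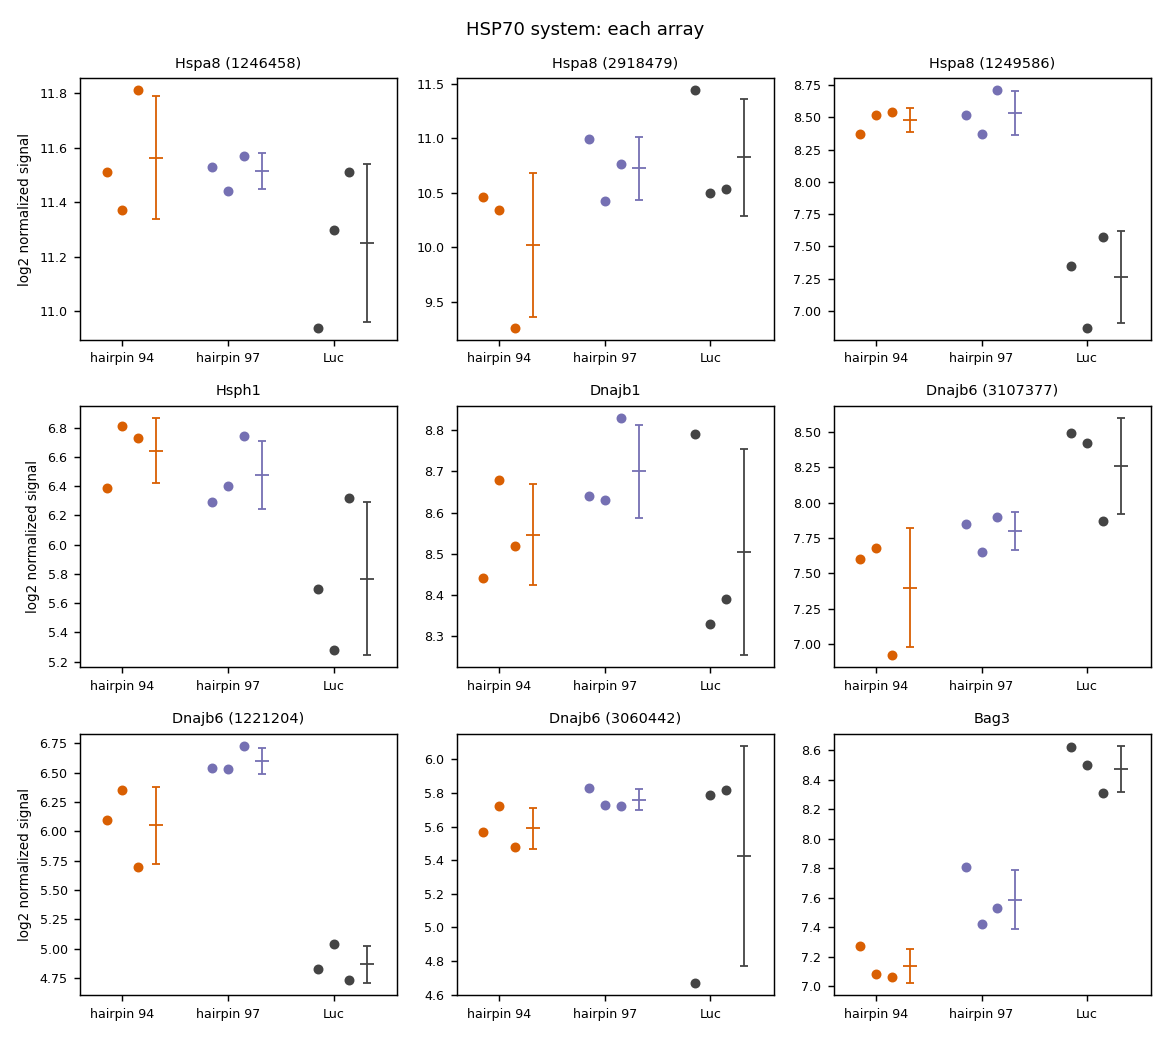
Log2 normalized signal (y axis, a scale of its own in each panel) on each array for 9 probes of the HSP70 system, with hairpin 94, hairpin 97 and Luc from left to right; dots are arrays, and the bar beside them is the mean with its SD (n = 3 each). In the panels of Hspa8 probe ILMN_1249586 and Dnajb6 probe ILMN_1221204 all knockdown arrays lie above the Luc arrays. In the Bag3 panel all lie below them, which turns to a change of 0.34 with scaling over all probes, and in the Dnajb1 panel the groups overlap.

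The J domain proteins of the cytosol had 5 tested probes of 3 genes, 1 higher and 1 lower, both of Dnajb6, with a median of 0.12. Of the 5, 40% passed, against 40.2% of all tested probes. Dnajb1, the heat-inducible HSP40 that hands clients to HSP70, measured 8.44, 8.68 and 8.52 with hairpin 94, 8.64, 8.63 and 8.83 with hairpin 97, and 8.79, 8.33 and 8.39 with Luc. The groups overlapped, with a change of 0.12 (SE 0.137, adjusted p = 0.5146) whose interval ran from -0.18 to 0.42. Dnaja2, another HSP70 partner, was dim, at 4.35 to 4.86 on the knockdown arrays and 4.40 to 4.89 with Luc (change -0.03, adjusted p = 0.8886). With scaling over probes that every array detected it was lower past the threshold, at -1.28, where the median of all tested probes was -0.55. The 2 probes of Dnaja1 and the 3 of Dnajb4 were detected on too few arrays to be tested.

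Dnajb6 (chr5:29735898-29786478), a chaperone known for holding back the aggregation of polyglutamine proteins, had the widest spread between probes, 2.12 on the log2 scale. Its 3 tested probes are annotated to 3 different transcripts of the gene. Probe ILMN_1221204 measured 6.10, 6.35 and 5.70 with hairpin 94, 6.54, 6.53 and 6.73 with hairpin 97, and 4.83, 5.04 and 4.73 with Luc, where 1 of 3 arrays detected it. All knockdown arrays lay above Luc, with a change of 1.46 (SE 0.153, adjusted p = 0.0001457). That is the highest of the tested member probes with quantile normalization, but not with the other scalings, where it was 0.75 (cyclic loess), 0.55 (scaling over probes that every array detected) and 1.99 (scaling over all probes), against 1.24, 1.23 and 2.67 for Hspa8 probe ILMN_1249586. Probe ILMN_3107377 measured 7.60, 7.68 and 6.92 with hairpin 94, 7.85, 7.65 and 7.90 with hairpin 97, and 8.49, 8.42 and 7.87 with Luc. It was lower by quantile normalization, at -0.66 (SE 0.197, adjusted p = 0.02168), with hairpin 97 replicate 6 just above the lowest Luc array, and turned to 0.79 with scaling over all probes. Without Luc replicate 1 or Luc replicate 2 it was -0.54 (adjusted p = 0.06916) or -0.58 (adjusted p = 0.06546). Probe ILMN_3060442 measured 5.57, 5.72 and 5.48 with hairpin 94, 5.83, 5.73 and 5.72 with hairpin 97, and 4.67, 5.79 and 5.82 with Luc, and its change of 0.25 did not pass (SE 0.227, adjusted p = 0.4089). Dnajb6 was the only member with probes past the threshold in both directions, although with scaling over all probes both were above 0.

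The 3 tested BAG genes had a median change of -0.52, with 2 lower and none higher, both above 0 with scaling over all probes. Of these 3 probes 66.7% passed, against 40.2% of all tested probes (15.2% lower). Bag3 (chr7:128523583-128546981) couples HSP70 to the autophagy of damaged proteins and is raised by heat. It measured 7.27, 7.08 and 7.06 with hairpin 94, 7.81, 7.42 and 7.53 with hairpin 97, and 8.62, 8.50 and 8.31 with Luc. Every knockdown array lay below every Luc array, at -1.11 (SE 0.132, adjusted p = 0.000225), and the change was 0.34 and did not pass with scaling over all probes. Measured against the median of all tested probes, Bag3 was at -0.54 by either scaling, -1.08 by cyclic loess and -1.22 with quantile normalization. As deposited, before any normalization, the Bag3 signals overlapped, at 229.3, 281.1 and 249.9 with hairpin 94, 427.1, 264.5 and 305.4 with hairpin 97, and 244.4, 247.8 and 236.9 with Luc.

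Bag4, a regulator of HSP70 that also binds death receptors, measured 6.31, 6.42 and 6.38 with hairpin 94, 6.67, 6.38 and 6.35 with hairpin 97, and 7.07, 6.83 and 6.92 with Luc. The groups were apart after normalization, with a change of -0.52 (SE 0.121, adjusted p = 0.006537) that turned to 0.88 with scaling over all probes, the same as the median of all tested probes there. Bag1, which links HSP70 to the proteasome, was bright and did not pass, at 11.07 to 11.31 on the knockdown arrays and 11.17 to 11.42 with Luc (change -0.09, SE 0.118, adjusted p = 0.5839).

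HSP90 and its partners had 8 tested probes of 7 genes, 2 higher and 1 lower, with a median of 0.01. Of the 8, 37.5% passed, against 40.2% of all tested probes. Hsp90aa1, the inducible HSP90 gene, had 2 tested probes. Probe ILMN_2668319 measured 6.50, 6.40 and 6.80 with hairpin 94, 6.56, 6.74 and 6.62 with hairpin 97, and 6.29, 6.63 and 6.73 with Luc. The groups overlapped, with a change of 0.05 (SE 0.141, adjusted p = 0.7893, interval -0.26 to 0.37). The dimmer probe ILMN_2752883 measured 5.24, 5.32 and 5.05 with hairpin 94, 5.24, 5.60 and 5.04 with hairpin 97, and 5.06, 4.59 and 5.34 with Luc, and its change of 0.25 did not pass (SE 0.18, adjusted p = 0.2843).

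Among the partners, Ahsa1, which speeds the ATPase of HSP90, measured 5.57, 6.04 and 5.59 with hairpin 94, 6.46, 6.03 and 6.00 with hairpin 97, and 5.65, 5.12 and 4.40 with Luc. The brightest Luc array lay above 2 of the hairpin 94 arrays, and the change was 0.89 (SE 0.245, adjusted p = 0.01467). The Ahsa1 change was 0.42 with cyclic loess and 0.14 with scaling over probes that every array detected, and it passed with neither of these nor when no probe was filtered out. Chordc1, a partner of HSP90 known as morgana, was higher with little spread, at 8.52, 8.46 and 8.44 with hairpin 94, 8.38, 8.39 and 8.43 with hairpin 97, and 7.90, 7.88 and 8.08 with Luc (change 0.49, SE 0.107, adjusted p = 0.004929). Fkbp4, the immunophilin that HSP90 carries to steroid receptors, measured 10.12, 10.27 and 10.32 with hairpin 94, 9.91, 9.98 and 9.93 with hairpin 97, and 10.65, 10.42 and 10.70 with Luc. The groups were apart, and the change of -0.50 (SE 0.115, adjusted p = 0.00638) turned to 0.85 with scaling over all probes. Stip1, which bridges HSP70 and HSP90, did not pass (change -0.23, SE 0.161, adjusted p = 0.2796), nor did St13 (-0.04, adjusted p = 0.9072) or Ptges3, the cochaperone p23 (-0.03, adjusted p = 0.9258). With scaling over probes that every array detected St13 (-1.24) and Ptges3 (-1.11) were lower past the threshold, where the median of all tested probes was -0.55.

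The chaperonin had the largest share past the threshold of the classes, 6 of 8 tested probes, against 40.2% of all tested probes. Its tested probes stand for 6 genes, with a median change of 0.45. Of the probes, 5 were higher, under each of the 4 scalings by their sign, and 1, of Cct6a, was lower except with scaling over all probes. Cct2 and Cct7 were detected on no array.

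Tcp1, the alpha subunit, measured 9.10, 9.09 and 8.81 with hairpin 94, 9.02, 9.09 and 9.39 with hairpin 97, and 7.84, 8.74 and 8.30 with Luc (change 0.79, SE 0.187, adjusted p = 0.007148). Cct4, the delta subunit, measured 9.55, 9.71 and 9.93 with hairpin 94, 10, 9.70 and 9.56 with hairpin 97, and 9.23, 9.20 and 9.03 with Luc (change 0.59, SE 0.138, adjusted p = 0.006904). Cct8, the theta subunit, measured 7.64, 7.95 and 7.74 with hairpin 94, 7.94, 8.07 and 7.76 with hairpin 97, and 7.27, 7.47 and 7.18 with Luc (change 0.54, SE 0.129, adjusted p = 0.007497). In these 3 genes each knockdown array lay above each Luc array. Cct3, the gamma subunit, had 2 probes that moved the same way. Probe ILMN_1247317 measured 8.23, 8.48 and 8.15 with hairpin 94, 8.79, 8.61 and 8.96 with hairpin 97, and 8.29, 7.59 and 7.78 with Luc, with overlap through Luc replicate 1 (change 0.65, SE 0.167, adjusted p = 0.01078). Probe ILMN_2931411 measured 9.16, 9.34 and 9.33 with hairpin 94, 9.37, 9.48 and 9.39 with hairpin 97, and 8.72, 9.12 and 9.13 with Luc (change 0.36, SE 0.127, adjusted p = 0.04566). The second Cct3 call was fragile: leaving out any of the 6 knockdown arrays or Luc replicate 1 ended it, with changes between 0.22 and 0.38 and adjusted p up to 0.1888.

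Cct6a, the zeta subunit, stood apart from the other subunits on its brighter probe. Probe ILMN_2962840 measured 10.81, 10.89 and 10.49 with hairpin 94, 11.03, 10.87 and 11.21 with hairpin 97, and 11.64, 11.76 and 11.67 with Luc. All knockdown arrays lay below Luc, at -0.81 (SE 0.131, adjusted p = 0.001014), while with scaling over all probes the change was 0.61. Probe ILMN_2774941, annotated to the same transcript, measured 10.08 to 10.52 on the knockdown arrays and 10.42 to 10.54 with Luc and did not pass (change -0.14, SE 0.109, adjusted p = 0.3237). The Cct5 probe was detected on no Luc array and on 5 of 6 knockdown arrays, and the bound between the groups gave no fold above 1.

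**Figure D3:**
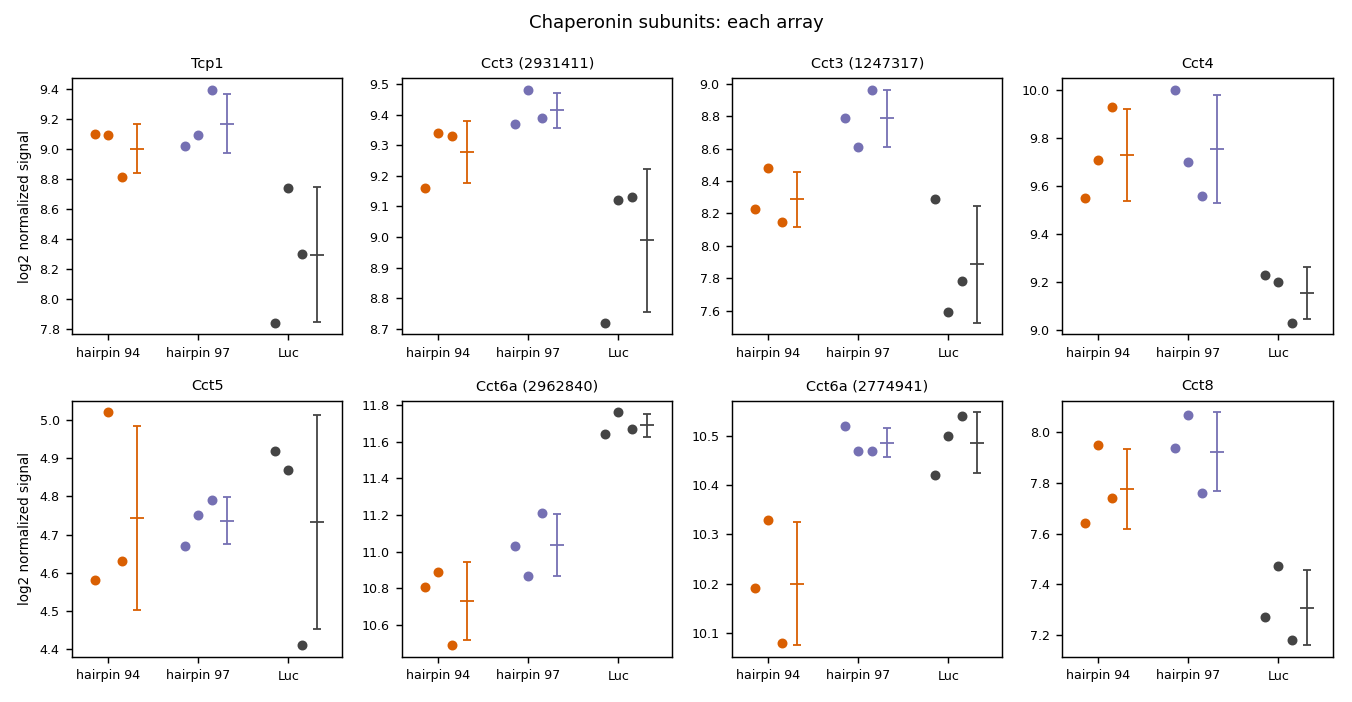
Log2 normalized signal (y axis, a scale of its own in each panel) on each array for the 8 tested probes of chaperonin subunits, with hairpin 94, hairpin 97 and Luc from left to right; dots are arrays, and the bar is the mean with its SD (n = 3 each). In the panels of Tcp1, Cct3 probe ILMN_2931411, Cct4 and Cct8 the knockdown arrays lie above all Luc arrays. In that of Cct6a probe ILMN_2962840 they lie below them, a difference of -0.81 that is 0.61 with scaling over all probes.

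The mitochondrial chaperones had 7 tested probes of 5 genes, with a median of 0.02. Hspd1 and Hspe1 encode the 2 parts of the mitochondrial chaperonin, HSP60 and its lid HSP10, and lie head to head on chromosome 1. Hspd1 probe ILMN_2713841 measured 8.46, 8.50 and 8.04 with hairpin 94, 8.42, 8.45 and 8.64 with hairpin 97, and 7.92, 7.94 and 8.03 with Luc, all knockdown arrays above Luc (change 0.45, SE 0.133, adjusted p = 0.0205). Hspd1 probe ILMN_2639036 measured 6.27, 6.26 and 5.57 with hairpin 94, 6.98, 6.09 and 6.79 with hairpin 97, and 6.97, 6.13 and 6.90 with Luc. It did not pass, at -0.34 (SE 0.257, adjusted p = 0.3081), and was 0.99 with scaling over all probes, so Hspd1 too has probes of opposite sign.

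Hspe1 measured 6.20, 6.63 and 6.42 with hairpin 94, 6.36, 6.40 and 6.72 with hairpin 97, and 7.11, 6.75 and 6.82 with Luc. The groups were narrowly apart, with a change of -0.44 (SE 0.146, adjusted p = 0.03495) that turned to 0.95 with scaling over all probes. The Hspe1 call was lost on leaving out Luc replicate 1, hairpin 94 replicate 1 or 3, or hairpin 97 replicate 4 or 5, with changes between -0.44 and -0.33 and adjusted p up to 0.1234. Trap1, the HSP90 of mitochondria, measured 7.05 to 7.42 on the knockdown arrays and 6.39, 7.03 and 7.09 with Luc, and did not pass the threshold (change 0.42, SE 0.157, adjusted p = 0.05378). It passed in the same direction under 10 of the 12 other settings, all but the ones with no filter and with the covariate, and on leaving out 2 of the 9 arrays, Luc replicate 2 or Luc replicate 3. The 2 probes of Hspa9, the mitochondrial HSP70, did not pass (0.18, adjusted p = 0.3081, and 0.01, adjusted p = 0.9611), nor did Dnaja3, its J domain partner (0.02, adjusted p = 0.9263).

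The direction of the lower probes differed between the deposited and the normalized signals, as the plot of both shows. As deposited, 29 of the 37 tested member probes had all knockdown signals above all Luc signals, 8 overlapped and none lay below, while 60.4% of all tested probes lay above and 0.367% below. After normalization, all 6 lower probes stayed below 0 with cyclic loess and with scaling over probes that every array detected. Scaling over all probes put all 6 above 0, as it did nearly every probe past the threshold, 99.9% of which were higher under it. Of the 6 probes that were lower after quantile normalization, Bag4, Fkbp4, Cct6a and Hspe1 were brighter on every knockdown array as deposited, and Bag3 and Dnajb6 overlapped. The knockdown arrays of Cct6a probe ILMN_2962840 had a mean deposited signal of 2469, against 1596 with Luc. That of Fkbp4 averaged 1464 with knockdown, against 830.3 with Luc. Relative to the median of all tested probes, all 6 lower probes lay below it and all 12 higher probes above it with cyclic loess. Both scalings shift each array by a constant and so give the same values relative to that median, counted here once, and by them 5 of the 6 lay below it. Cct6a lay at -0.27 from that median, Dnajb6 at -0.09, Fkbp4 at -0.03 and Bag4 at -0.01, and Hspe1 lay above it at 0.07. Of the 12 higher probes, 11 lay above that median by the scalings, Hspa8 probe ILMN_1249586 by 1.79. Hspa4 lay below it at -0.17.

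**Figure D4:**
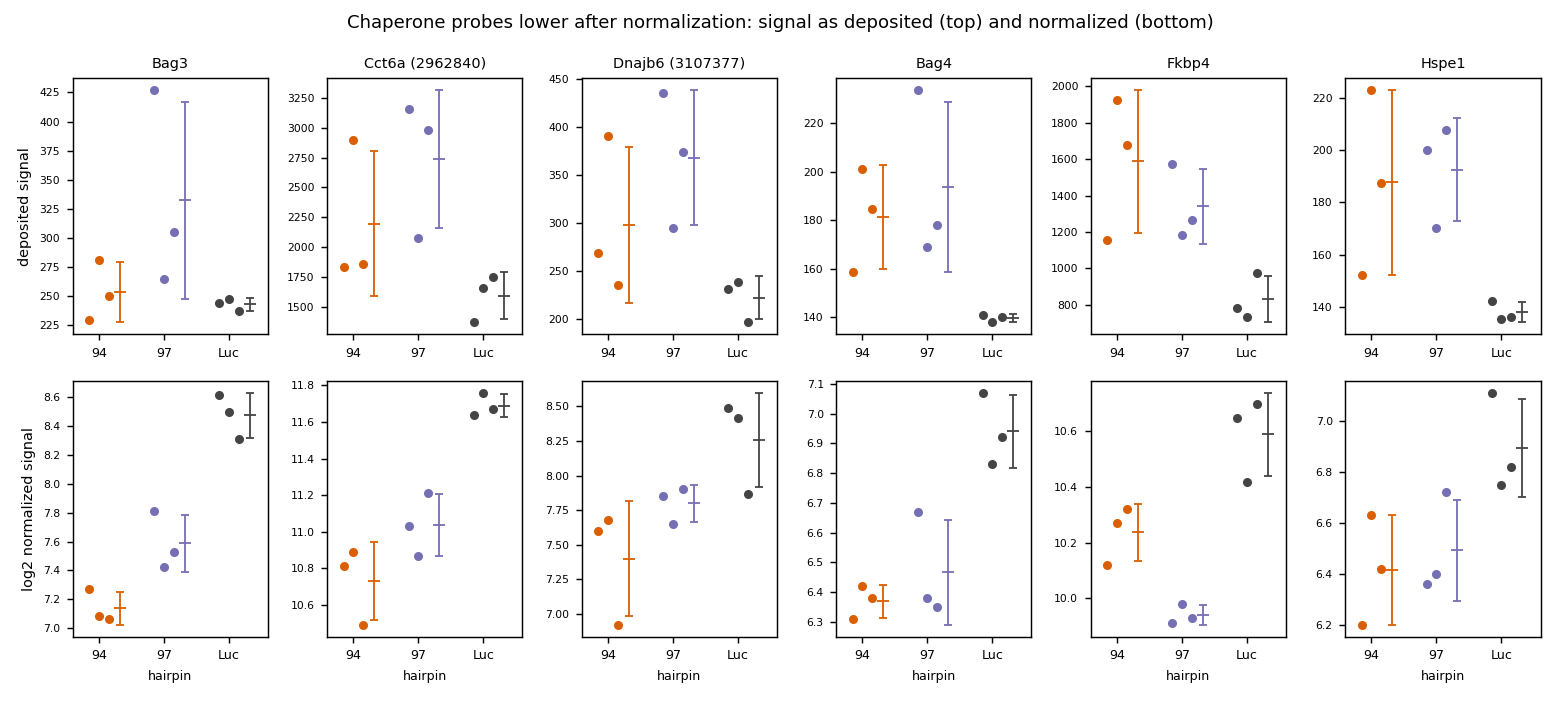
Signal of the 6 probes that were lower after quantile normalization: as deposited on a linear scale (top row) and as log2 normalized signal (bottom row), each panel with a scale of its own, with hairpins 94 and 97 and Luc from left to right; dots are arrays and bars the mean with its SD (n = 3 each). The top row has Bag4, Fkbp4, Cct6a and Hspe1 brighter on every knockdown array than on any Luc array, and the bottom row has all but Dnajb6 below every Luc array, a direction that turns with scaling over all probes.

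Each hairpin was also set against Luc by itself. Both comparisons use the same 3 Luc arrays, so they are not independent of each other or of the comparison above. With hairpin 94, 9 member probes were higher and 4 lower, 35.1% of the 37, where 32.4% of all tested probes passed (20.0% higher, 12.3% lower). The median member change was 0.04, against 0.10 over all tested probes. With hairpin 97, 12 were higher and 4 lower, 43.2%, where 32.9% of all tested probes passed (20.6% higher, 12.3% lower). The median was 0.15, against 0.11 over all tested probes. With scaling over all probes no member was lower with either hairpin. Hspa4, detected on no Luc array, was among the higher probes with each hairpin. The hairpin 94 counts rested on single arrays: without hairpin 94 replicate 2 there were 4 higher probes, and without Luc replicate 2 there were 7 lower ones. Higher probes with hairpin 97 numbered 6 without its replicate 4 and 7 without its replicate 5 or 6.

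By gene the hairpins gave these values. Hspa8 probe ILMN_1249586 changed by 1.21 with hairpin 94 and by 1.27 with hairpin 97, and Hsph1 by 0.88 with hairpin 94 and 0.71 with hairpin 97. Among the chaperonin genes, Cct4 changed by 0.58 with hairpin 94 and 0.60 with hairpin 97, Tcp1 by 0.71 with hairpin 94 and 0.87 with hairpin 97, and Cct8 by 0.47 with hairpin 94 and 0.61 with hairpin 97. All of these passed with each hairpin. Ahsa1 (0.68 with hairpin 94, adjusted p = 0.08889) passed only with hairpin 97, at 1.11 (adjusted p = 0.01305), as did Cct3 probe ILMN_1247317 (0.40 with hairpin 94, adjusted p = 0.1331, and 0.90 with hairpin 97, adjusted p = 0.005729). Hspd1 probe ILMN_2713841, Cct3 probe ILMN_2931411 and Fkbp4, too, passed with hairpin 97 alone. Trap1 passed with hairpin 94 alone, at 0.54 (adjusted p = 0.04382), as did Dnajb6 probe ILMN_3107377 at -0.86 (adjusted p = 0.01559). Bag3 was at -1.34 with hairpin 94 and -0.89 with hairpin 97 and passed with both, although with scaling over all probes these were 0.10 with hairpin 94 and 0.59 with hairpin 97.

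Passing with 1 hairpin alone does not show a difference between hairpins, which was tested directly. In hairpin 97 against hairpin 94, 0 of the 37 member probes passed (smallest adjusted p = 0.3538 by limma), where 0.139% of all tested probes, 19, did (0.0293% higher and 0.11% lower). The count over all probes ran from 0 to 43 on leaving out 1 array: it was 43 without Luc replicate 1, 2 without hairpin 97 replicate 6 and 0 without any other of the knockdown arrays. At an unadjusted p under 0.05 there were 6 member probes, against 1166 of the 13641. The median member difference was 0.09, against 0.01 over all tested probes. The 6 were Dnajb6 probe ILMN_1221204 at 0.55 (interval 0.16 to 0.94), Cct3 probe ILMN_1247317 at 0.50 (0.07 to 0.92), Bag3 at 0.45 (0.12 to 0.79), Fkbp4 at -0.30 (-0.59 to -0.01), Cct6a probe ILMN_2774941 at 0.29 (0.01 to 0.56) and Stip1 at 0.41 (0.00 to 0.83), named after their values were seen. The 95% intervals of the 37 differences ran from -0.77 to 1.45, and 34 of them lay wholly within 1 on the log2 scale. These intervals are not adjusted for the number of probes, and with 3 arrays a group the data do not exclude differences within them.

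Promoters of the member genes were read from RefSeq (GRCm38.p6), 250 bases before to 50 after each annotated start. The aim was to see which carry a dimer of the heat shock element. Both dimers of the element were searched, GAANNTTC and TTCNNGAA, each of which is its own reverse complement, and overlapping matches were counted. Windows were found for 29 of the 37 members, without St13, Hspa9, Hspa8, Bag4, Cct4, Hsf1, Hsp90ab1 and Hsp90aa1. Either dimer was present in 17 of 38 member windows, 44.7%, against 15.1% of all 32851 windows of the same length. Some member windows overlap, among them those of Dnajb6, those of Hsph1, and those of Hspd1 and Hspe1. The same dimer can thus count more than once. By gene, 15 of the 29 had either dimer, and the share of all genes was not counted. GAANNTTC was in 36.8% of member windows and 7.86% of all windows, and TTCNNGAA in 26.3% and 8.52%.

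A dimer was found beside changes of either direction. It was present in 3 of the 8 genes with a higher probe (Chordc1, Hspd1 and Hsph1), in all 4 with a window and a lower probe under quantile normalization (Bag3, Cct6a, Fkbp4 and Hspe1), in Dnajb6, which had both, in 1 of the 9 that did not pass (Cct5) and in 6 of the 7 that could not be tested (Cct2, Dnaja1, Dnajb4, Hspa1a, Hspa1b and Hspb1). A match is a run of letters and not a measured site of HSF1. Neither dimer was found in the windows of Dnajb1, although it is heat-inducible, and elements outside the windows were not searched. The windows of 3 genes are shown, since they carry a dimer and differ in the direction of their change after quantile normalization. Hsph1 was higher, and Bag3 and Hspe1 were lower except with scaling over all probes. Capitals mark the dimers.
Bag3 chr7:128523333-128523632, plus strand: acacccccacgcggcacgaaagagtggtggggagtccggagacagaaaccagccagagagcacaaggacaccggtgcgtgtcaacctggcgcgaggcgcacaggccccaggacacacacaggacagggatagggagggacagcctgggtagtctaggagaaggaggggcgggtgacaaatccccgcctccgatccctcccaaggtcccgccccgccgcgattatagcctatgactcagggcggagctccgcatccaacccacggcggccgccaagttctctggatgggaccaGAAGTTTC
Hsph1 chr5:149636266-149636565, minus strand: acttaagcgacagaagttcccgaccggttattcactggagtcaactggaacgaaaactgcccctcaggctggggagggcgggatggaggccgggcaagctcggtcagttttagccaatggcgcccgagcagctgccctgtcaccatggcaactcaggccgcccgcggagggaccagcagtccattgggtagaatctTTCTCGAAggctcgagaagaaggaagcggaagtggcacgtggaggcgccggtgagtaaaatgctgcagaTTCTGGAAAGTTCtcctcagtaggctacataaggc
Hspe1 chr1:55087898-55088197, plus strand: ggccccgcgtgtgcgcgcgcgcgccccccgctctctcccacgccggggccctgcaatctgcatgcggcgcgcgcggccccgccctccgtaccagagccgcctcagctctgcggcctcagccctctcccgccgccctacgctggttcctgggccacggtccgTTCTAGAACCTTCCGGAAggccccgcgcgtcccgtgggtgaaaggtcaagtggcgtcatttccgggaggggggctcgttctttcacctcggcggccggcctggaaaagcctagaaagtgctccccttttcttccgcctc
The Bag3 window holds 1 dimer, 42 bases after the start. That of Hsph1 holds 3, from 54 bases before to 20 after the start. That of Hspe1 also holds 3, which overlap, 89 to 79 bases before the start. The Hspe1 window shares 285 bases with 1 of the 2 Hspd1 windows (chr1:55087883-55088182, minus strand). The other Hspd1 window (chr1:55088194-55088493) held neither dimer. The same 3 dimers thus lie in a window of a gene with a higher probe and in that of a gene whose probe was lower except with scaling over all probes.

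Other genes of protein folding outside the 37 were read from a list of 64 with further HSP70, J domain, BAG, HSP90, prefoldin and mitochondrial protease genes. Of these, 40 genes had a tested probe, 60 probes in all. With knockdown 16 probes were higher and 10 lower, 43.3% of the 60, against 40.2% of all tested probes, and the median change was 0.02. With scaling over all probes 47 were higher and none lower. Naca, a subunit of the complex that meets nascent chains at the ribosome, was highest on probe ILMN_2955104, at a mean of 10.24 with knockdown and 8.79 with Luc (change 1.45, SE 0.134, adjusted p = 0.0001131). Its probe ILMN_2651643 was at -0.64 (adjusted p = 0.01554), or 0.78 with scaling over all probes. Its probe ILMN_2651642 was at -0.45 and did not pass (adjusted p = 0.05441), or 0.97 with scaling over all probes. Pfdn5, a prefoldin subunit that passes actin and tubulin to the chaperonin, was at 0.92 on probe ILMN_2671747 (SE 0.112, adjusted p = 0.000252), with 0.93 by cyclic loess and 0.90 with scaling over probes that every array detected, while its other tested probe was at 0.10 (adjusted p = 0.565). Bag5 was at 1.08 (SE 0.199, adjusted p = 0.001947), with 0.46 by cyclic loess and 0.17, not past the threshold, with scaling over probes that every array detected. At the other end stood the prefoldin subunit Pfdn2 at -1.04 (SE 0.116, adjusted p = 0.0001725), Dnajc11, a mitochondrial J domain protein, at -0.95 (SE 0.191, adjusted p = 0.003148) and the HSP70 gene Hspa2, on probe ILMN_1223285, at -0.90 (SE 0.113, adjusted p = 0.0003146), which were 0.38, 0.26 and 0.50 with scaling over all probes. A further tested probe of Hspa2, ILMN_3140383, was at 0.27 and did not pass (adjusted p = 0.2418).

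Marker genes of other cell types moved with the groups. All 7 tested genes of a list of 12 neutrophil genes were higher with knockdown (6 of 7 with scaling over probes that every array detected, 7 with each other scaling), with a median change of 1.08 and a summed normalized signal of 11000 to 11100 with hairpin 94, 10600 to 12300 with hairpin 97 and 5400 to 6000 with Luc. The exception was Ltf at -0.13, which was detected on no Luc array. Of the immediate early genes, which respond to sample handling, 5 of 10 were tested, with Dusp1 and Fos higher and Junb (-1.23) and Ier3 (-0.75) lower. Dusp1 and Fos were detected on no Luc array, and with cyclic loess they were at 0.31 and 0.3 and did not pass. With scaling over probes that every array detected Dusp1 and Fos were at -0.23 and -1.03, and with scaling over all probes Junb and Ier3 were at 0.19 and 0.68. Their summed signal was 305 to 335 with hairpin 94, 263 to 290 with hairpin 97 and 433 to 468 with Luc. Of the genes of eosinophils, basophils and mast cells 4 of 7 were tested, Cpa3 higher and Prg2 and Epx lower, with sums of 324 to 352 with hairpin 94, 220 to 257 with hairpin 97 and 419 to 491 with Luc. None of the 4 was lower past the threshold with scaling over all probes. Cpa3 was detected on no Luc array. It was at 0.36 with cyclic loess and -0.07 with scaling over probes that every array detected, and passed with neither. No erythroid gene of 7 could be tested, and none of the monocyte, B cell or megakaryocyte genes tested (2, 1 and 1) passed with quantile normalization or cyclic loess. With scaling over probes that every array detected Csf1r (-1.27) and Adgre1 (-0.63) of monocytes and Gp9 (-0.86) of megakaryocytes were lower, and with scaling over all probes Adgre1 (0.81), Gp9 (0.58) and Cd79b (1.54) of B cells were higher. The T and NK list had 1 tested gene of 9, Nkg7, at -0.65 (0.77 with scaling over all probes). The list of progenitor and sort gate genes had 7 of 8 tested, 2 of them, Fcgr3 and Fcgr2b, higher. With scaling over probes that every array detected Cd34 (-1.21) and Myb (-0.55) were also lower, and with scaling over all probes 6 of the 7 were higher. Kit was detected on all 9 arrays, Cd34 on 4, none of them a Luc array, and Flt3 on none. The part of these shifts in the chaperone results was not tested.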

How the data were processed

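Total RNA of 9 samples was labelled with biotin and hybridised to Illumina bead arrays, per the labels' protocols. For each probe on each array the authors deposited an intensity, a bead signal per the file headers, together with a detection p-value. They also deposited a series matrix of log2 values, whose columns have the rank order of the signals (rank correlation 1) and a common median of 6.612. The software behind these values is not given in the sources used here. Neither slides nor scan dates are given, and batches were therefore not tested. Groups and replicate numbers come from the sample titles.

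The signals were background corrected and normalized by the neqc function (limma 3.58.1, R 4.3.3; background inferred from the detection p-values, offset of 16, quantile normalization, log2). Gene symbols come from the platform annotation, with 34885 probes of 1 symbol, 18 of several and 10378 of none, and updating them by gene number left the same 63 member probes. Probes detected (p under 0.05) on at least 3 arrays entered 1 lmFit over all 9 arrays with 4 contrasts, tested with eBayes and adjusted by Benjamini-Hochberg at 0.05. The code was tested on simulated data. A bound replaces the fold where no Luc array detected a probe: the mean of the knockdown arrays against, per Luc array, the higher of the probe's signal and the lowest detected signal. Array values are named for the heat-inducible and constitutive genes, the 12 smallest adjusted p, and all probes of genes with opposite signs of which 1 passed. Of the other folding genes, the 3 largest rises and falls are named. Members, lists and this rule were chosen with earlier results of these data known. The alternatives were 12 settings of background, scaling, filter, probe choice and model, a replicate block, and leaving out each of the 9 arrays. The number of arrays limits the precision. No 2 arrays were identical, and their correlations ran from 0.929 to 0.9901.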

Additional observations from a re-analysis of the deposited data

How the results depend on the processing

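Results were recomputed under 12 other settings and with each of the 9 arrays left out. Of the values that answer a comparison 302 stayed within 1.5 times the reported count or within the replicate spread of a median, and 80 did not. For each the cause was not tested unless the setting itself tests fewer probes.

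Leaving out 1 array, knockdown against Luc had 11 to 14 member probes higher, 4 to 6 lower, a member median of 0.084 to 0.166 and 4572 to 5523 of all probes past the threshold. Hairpin 94 had 4 to 9 higher (4 without hairpin 94 replicate 2), 3 to 7 lower (7 without Luc replicate 2), a median of 0.041 to 0.191 and 3195 to 4773 probes in all. Hairpin 97 had 6 to 13 higher (6 without hairpin 97 replicate 4, 7 without its replicate 5 or 6), 3 to 5 lower, a median of 0.13 to 0.181 and 3029 to 4725 in all. Hairpin 97 against hairpin 94 had 0 members in each case, a median of 0.069 to 0.143, and 0 to 43 probes in all, against 19. The other folding genes had 13 to 15 higher and 8 to 14 lower.

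The count for hairpin 97 against hairpin 94 over all probes was 135 with no background correction, 87 with an offset of 50, 155 with the series matrix, 190 with cyclic loess, 68 with scaling over probes that every array detected, 89 over probes detected on all arrays, 8 with no filter, 34 with 1 probe per gene and 91 with an intensity trend. Lower member probes with hairpin 94 were 8, 7 and 7 under the first 3 of these and 8 with the trend, against 4. The member median of knockdown against Luc, 0.118, was 0.045 with the series matrix, 0.041 with cyclic loess and 0.006 with no filter. That of hairpin 97, 0.15, was 0.066, 0.043 and 0.004 in that order, and that of hairpin 94 was 0.162 with a detection p under 0.01. Over probes detected on all arrays the other folding genes had 9 higher. With 1 probe per gene, 3465, 2847 and 2888 probes passed with knockdown, hairpin 94 and hairpin 97.

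Scaling over probes that every array detected gave 13 lower member probes with knockdown, 17 with hairpin 94 and 11 with hairpin 97, medians of -0.069, -0.101 and -0.044, and 9761, 8998 and 9215 probes in all, with 9 of the other folding genes higher and 32 lower. It turned Hsp90aa1 probe ILMN_2752883 to -0.68 with knockdown, -0.7 with hairpin 94 and -0.66 with hairpin 97, Hspa4 to -0.72, -0.68 and -0.76, Dnajb6 probe ILMN_3060442 to -0.38 with knockdown and -0.46 with hairpin 94, and Cct5 to -1.18 with knockdown.

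Scaling over all probes gave 32 higher members with knockdown, 30 with hairpin 94 and 33 with hairpin 97, 0 lower in each, medians of 1.367, 1.314 and 1.413, 9958, 9351 and 9420 probes in all, and 47 of the other folding genes higher and 0 lower. With knockdown, hairpin 94 and hairpin 97 it turned Bag3 to 0.34, 0.10 and 0.59, Cct6a probe ILMN_2962840 to 0.61, 0.44 and 0.78, Fkbp4 to 0.85, 0.97 and 0.73, Bag4 to 0.88, 0.81 and 0.94, Dnajb6 probe ILMN_3107377 to 0.79, 0.58 and 1.01, Hspd1 probe ILMN_2639036 to 0.99, 0.67 and 1.32, and Hspe1 to 0.95, 0.91 and 1.00. Hspa8 probe ILMN_2918479 turned to 0.90 with knockdown and 1.28 with hairpin 97. With knockdown it also turned Bag1 to 1.32, Stip1 to 1.18, Cct6a probe ILMN_2774941 to 1.22, Pfdn2 to 0.38, Dnajc11 to 0.26 and Hspa2 to 0.50.

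With each array's count of detected probes as a covariate, which differs between the groups without overlap and so leaves little to estimate (median standard error 0.525, against 0.153), 0 probes passed with knockdown, hairpin 94 or hairpin 97, members, other folding genes and all probes alike, and the member medians were -0.086, -0.082 and -0.031. Cct3 probe ILMN_2931411 turned to -0.10 with knockdown and -0.03 with hairpin 97, and Tcp1 to -0.02 with hairpin 94. Luc and hairpin 94 share replicate numbers, and the deviations of same-numbered arrays correlated at 0.0486 to 0.141. With 3 pairs of arrays and no label on it, this cannot settle whether the numbers pair them. For hairpin 94 against Luc, a fit with the replicate block gave 2 higher and 3 lower member probes and 2579 probes in all. Without the block these were 9, 4 and 4413.

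Probes near background limit the result: 10 of the 37 tested member probes were not detected on every array, and 7 of the 35 members with a probe had no tested probe.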
